A study of Homo sapiens with 12 samples.

Results

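The effect of an siRNA against EZH2 was measured against untransfected cells of the same line, on 4 arrays a side, which is 8 of the 12 arrays of the series. The arrays were chosen by their titles, and genes were described where their signal rose above background. The EZH2 siRNA group received an siRNA against EZH2, the control siRNA group a scrambled siRNA, and the untransfected group no siRNA. All 3 groups are the human ovarian cancer line SKOV3, which the titles of the untransfected arrays name SKOV3ip. The 4 control siRNA arrays were used to separate changes also seen with a scrambled siRNA from changes seen with EZH2 siRNA and not detected with control siRNA. The labels give no siRNA sequence, dose, transfection reagent or time of harvest, and cells given reagent alone were not analysed here. Nothing in the labels tells separate cultures from repeat arrays of the same culture, so the p-values cover a spread that may be technical.

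EZH2 is the enzyme of Polycomb repressive complex 2 (PRC2). It works with the subunits EED and SUZ12 to methylate histone H3 and keep developmental genes silent. An siRNA is a short double-stranded RNA that guides the cleavage of mRNAs with a matching sequence. Double-stranded RNA is also read by innate sensors, which induce interferon, and interferon in turn induces antiviral genes. The series is titled for the regulation of angiogenesis by EZH2.

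RNA was hybridised to Illumina bead arrays with 48803 probes, of which 18168 probes for 11282 named genes were above background on at least 4 of the 12 arrays and were tested. A level is the log2 of the normalised intensity of the brightest tested probe of a gene. Levels were compared only between groups for the same probe. The mean raw signal of an array was 186 to 284 intensity units with EZH2 siRNA, 291 to 386 with control siRNA and 157 to 410 in untransfected cells. The 3 dimmest arrays were EZH2 siRNA arrays 1 and 4 and untransfected array 4. Precision is limited by the number of arrays, and log2 fold changes had a median standard error of 0.13. Of 12 markers of the ovarian carcinoma line, 10 were above background on all 8 arrays of the comparison, among them KRT7, KRT8, EPCAM and PAX8. Of the lists, 7 of 12 endothelial and 6 of 11 leukocyte markers were above background on 0 of the 8 arrays of the comparison. CDH5, VWF and PTPRC were so on 0 of all 12. The endothelial marker PECAM1 was above background on 2 EZH2 siRNA, 4 control siRNA and 3 untransfected arrays. KDR and ESAM were so on 2, 1 and 2 arrays, and the leukocyte marker LYZ on 2 of each group. The endothelial list had 1 of 12 markers above background on all 8 arrays, TIE1, which fell by 0.52, and its summed intensity was 236 to 278 with EZH2 siRNA, 229 to 261 with control siRNA and 281 to 308 in untransfected cells. The leukocyte list had 1 of 11, the lysosomal protein CD68, which rose by 1.05, and its sum was 1263 to 1553 with EZH2 siRNA, 1072 to 1305 with control siRNA and 570.2 to 871 in untransfected cells. The fibroblast list had 1 of 10, POSTN, which was not called, and sums of 214 to 273, 236 to 321 and 185 to 294 in the same groups. The part of such markers in the results below was not tested. Every EZH2 siRNA array was dimmer than every control siRNA array, so brightness and the difference between these groups cannot be fully told apart. The part of brightness was not tested beyond fits without the 3 dimmest arrays and with array brightness as a covariate.

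EZH2 mRNA was lower with EZH2 siRNA, as measured by each of its 3 tested probes, while SUZ12 and EED were not called. The brightest of them had levels of 6.51, 6.80, 6.95 and 6.45 on the EZH2 siRNA arrays, 7.47, 7.67, 7.73 and 7.36 on the control siRNA arrays, and 7.95, 7.77, 7.86 and 8.36 on the untransfected arrays. Each EZH2 siRNA array lay below each control siRNA array, and each control siRNA array below each untransfected array. The level was 2.48-fold lower than in untransfected cells (log2 fold change −1.31 with a 95% confidence interval of −1.61 to −1.01 and an adjusted p of 4.2e-06 in limma). The exact two-sided permutation test on these levels gave p = 0.0286, the smallest p that 4 arrays against 4 allow. The other EZH2 probes had log2 fold changes of −1.29 and −0.95, and they rose above background on 3 and 2 arrays of the EZH2 siRNA group, so that those values are near the floor of the array. With control siRNA the brightest probe changed by −0.43 (adjusted p = 0.0897) and the others by −0.62 (adjusted p = 0.0202) and −0.42 (adjusted p = 0.13). Between the siRNAs the log2 fold changes were −0.88 (adjusted p = 0.00145), −0.67 (adjusted p = 0.0186) and −0.53 (adjusted p = 0.0619) in the same order. The log2 fold change was −0.03 for SUZ12 (adjusted p = 0.937) and −0.36 for EED (adjusted p = 0.0542). EZH1, the other methyltransferase that can serve PRC2, was not tested, since it was above background on 0 EZH2 siRNA arrays, 1 control siRNA array and 1 untransfected array. JARID2, which recruits PRC2 to its sites, rose by 0.73 on the log2 scale with EZH2 siRNA, and its control siRNA change was also 0.73.

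Across all tested genes, 2047 of 11282 (18.1%) passed an adjusted p of 0.05 between EZH2 siRNA and untransfected cells and are referred to as called. Of these, 1113 genes (9.87% of those tested) were higher with EZH2 siRNA and 934 (8.28%) were lower. Most of the changes were small: 1236 of the called genes differed by under 1.5-fold. A called change of at least 2-fold was seen in 81 genes that were higher (0.718%) and in 70 that were lower (0.62%). The EZH2 siRNA arrays did not overlap the untransfected arrays for 1569 of the called genes, and for 17.7% of all tested genes.

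Control siRNA against untransfected cells called 858 genes (7.61%), with 536 higher (4.75%) and 322 lower (2.85%). EZH2 siRNA against control siRNA, which is the test of the difference between the 2 siRNAs, called 536 genes (4.75%), with 228 higher (2.02%) and 308 lower (2.73%). Both changes from untransfected cells are measured against the same 4 untransfected arrays, and the classes below rest on that shared baseline. In the first class, 615 of the 2047 called genes (30%) were also called in the same direction with control siRNA. In 574 of these, EZH2 siRNA and control siRNA were not called apart, while EZH2 siRNA had gone further from untransfected cells than control siRNA in 33 and less far in 8. In the second class, 270 genes (13.2%) were not called with control siRNA and were called between EZH2 siRNA and control siRNA in the same direction. They are described below as changed apart from control siRNA. A gene not called with control siRNA may still have changed with it. Leaving out those with an unadjusted limma p under 0.05 in the same direction with control siRNA left 241 genes in this class. Genes left out by that rule include EZH2, PRDX6, AP1S1, BIK, G0S2, ADIRF and H2AC20, all described below as apart. A further 7 genes were called in opposite directions with the 2 siRNAs. The other 1155 genes (56.4%) were called neither with control siRNA nor between the siRNAs, and could not be assigned.

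Changes of at least 2-fold lay mostly in the shared class. Of the 615 genes that moved in the same direction with control siRNA, 390 were higher and 225 lower, and 118 changed by at least 2-fold (78 higher, 40 lower). Of the 270 genes that changed apart from control siRNA, 105 were higher and 165 lower, and at least 2-fold changes numbered 3 among the higher and 27 among the lower. Among the unassigned genes, 3 of 1155 reached 2-fold.

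The class sizes moved with single arrays. The class apart from control siRNA held 101 genes without EZH2 siRNA array 1, 136 without array 4 and 498 without array 3. It held 120, 122 and 154 genes without control siRNA arrays 2, 3 and 4. The class shared with control siRNA held 405 genes without control siRNA array 1 and 409 without control siRNA array 4. The unassigned class held 703 genes without EZH2 siRNA array 1. The opposite class held 2, 3, 3 and 4 genes without untransfected array 1, untransfected array 3, EZH2 siRNA array 1 and EZH2 siRNA array 4. Genes called between the 2 siRNAs numbered 217, 923 and 285 without EZH2 siRNA arrays 1, 3 and 4, and 223, 233 and 291 without control siRNA arrays 2, 3 and 4. Genes called between control siRNA and untransfected cells numbered 538, 550 and 527 without control siRNA arrays 1, 3 and 4. Without the 3 dimmest arrays together, 782 genes were called with EZH2 siRNA, 407 in the shared class and 54 apart from control siRNA.

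**Figure D1:**
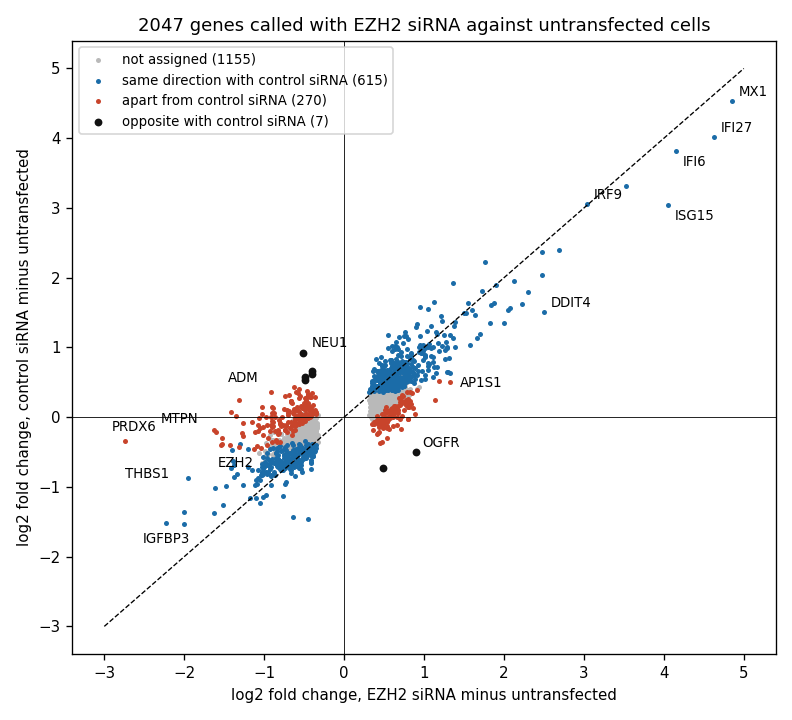
Log2 fold change of each of the 2047 genes called with EZH2 siRNA against untransfected cells (x axis) and of the same gene with control siRNA against untransfected cells (y axis), coloured by class. The interferon-induced genes MX1, IFI27, IFI6 and ISG15 lie near the dashed line of equal change. PRDX6, MTPN and ADM lie to the left and away from that line, with PRDX6 at −0.34 and ADM at 0.36 on the y axis. Both axes share the untransfected arrays.

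Genes induced by interferon gave the largest rises, and nearly all of them rose with control siRNA as well. Of 43 tested antiviral effectors, 36 rose with EZH2 siRNA and 0 fell, where 9.87% of all genes rose. Their median log2 fold change was 1.11, against −0.0023 over all tested genes. With control siRNA 36 rose as well, with a median of 0.96, and 35 of the 36 called with EZH2 siRNA were in the shared class. Genes below background in untransfected cells, as OAS2 and the sensor DHX58 were, passed the background filter only through siRNA arrays. A fall could not be seen in such genes, so the counts of rises and falls partly reflect the filter. Testing only probes above background on every array left 23 effectors that rose and 0 that fell. The number tested under that filter is not given here. The mean level over the list was 8.82 to 8.90 on the EZH2 siRNA arrays, 8.59 to 8.70 on the control siRNA arrays and 7.41 to 7.46 on the untransfected arrays.

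The promoters of 3 of these genes and of TAP1, a peptide transporter of antigen presentation, are shown because they hold the letters of the interferon-stimulated response element, to which IRF9 binds. The sequences are RefSeq promoter stretches on GRCh38.p14, printed 5′ to 3′ on the strand of the gene, and capitals mark each match to the motif, read as GAAA, any 2 bases and GAAA on either strand. Overlapping matches run together. IFI27 is taken from chr14:94110566-94110665 (plus strand), IFI6 from chr1:27672263-27672362 (minus strand), ISG15 from chr1:1013327-1013426 (plus strand) and TAP1 from chr6:32853775-32853874 (minus strand). Each stretch runs from 170 to 71 bases before the gene's start.
IFI27: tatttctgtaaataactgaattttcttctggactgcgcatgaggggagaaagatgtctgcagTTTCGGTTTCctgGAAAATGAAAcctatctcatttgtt
IFI6: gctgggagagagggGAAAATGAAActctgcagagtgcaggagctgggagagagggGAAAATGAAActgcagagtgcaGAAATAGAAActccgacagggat
ISG15: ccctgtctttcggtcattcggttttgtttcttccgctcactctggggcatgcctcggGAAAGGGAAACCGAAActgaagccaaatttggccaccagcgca
TAP1: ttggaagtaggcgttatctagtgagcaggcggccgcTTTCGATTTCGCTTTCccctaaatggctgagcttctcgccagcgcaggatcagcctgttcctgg
The motif was found in 24 of the 35 promoter windows of the effector list (68.6%), where a window runs from 250 bases before a gene's start to 50 after it. It was found in 3.65% of all 27305 windows and in 2.7% of the 9208 windows of tested genes. Among genes that were higher with both siRNAs, which include effectors of the list, it was found in 34 of 317 windows (10.7%). Among those higher apart from control siRNA it was found in 3.41%. A match is a description of the letters and was not tested as a binding site.

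MX1, a dynamin-like GTPase that blocks viral replication, had levels of 11.59, 11.51, 12.03 and 11.87 with EZH2 siRNA, 11.46, 11.22, 11.53 and 11.49 with control siRNA, and 6.82, 6.77, 6.80 and 7.19 in untransfected cells. It was 28.9-fold higher than in untransfected cells (log2 fold change 4.85, SE 0.13, adjusted p = 3.23e-15), and the 2 siRNAs were not called apart (difference 0.32, adjusted p = 0.195). IFI27, a small mitochondrial protein induced by interferon, had levels of 11.82, 11.65, 11.36 and 11.56 with EZH2 siRNA, 11.11, 10.83, 10.90 and 11.08 with control siRNA, and 7.02, 6.93, 6.91 and 7.00 in untransfected cells. All 4 EZH2 siRNA arrays lay above all control siRNA arrays for IFI27, and it was 24.8-fold higher than in untransfected cells, with a called difference of 0.62 between the siRNAs (adjusted p = 0.00443). ISG15, a ubiquitin-like protein that is joined to other proteins, had levels of 11.97, 12.02, 11.48 and 11.86 with EZH2 siRNA, 10.77, 10.92, 10.79 and 10.80 with control siRNA, and 7.58, 7.83, 7.87 and 7.86 in untransfected cells. It was 16.6-fold higher than in untransfected cells and 1.01 higher on the log2 scale than with control siRNA (adjusted p = 7.66e-05), and its 3 groups did not overlap. IFI6, an inhibitor of apoptosis and of virus replication, was 17.8-fold higher, at 13.01 ± 0.05 with EZH2 siRNA, 12.68 ± 0.15 with control siRNA and 8.85 ± 0.26 in untransfected cells (SD, n = 4 each). OAS2, an enzyme that activates the ribonuclease RNase L, was above background on 4 EZH2 siRNA arrays and on 0 of 4 untransfected arrays, and was at least 9.27-fold higher. All 3 of its tested probes were called higher, with log2 fold changes of 0.77 to 3.53. HELZ2, a helicase, was 6.45-fold higher, at 10.22 ± 0.31 with EZH2 siRNA, 9.93 ± 0.17 with control siRNA and 7.53 ± 0.13 in untransfected cells (SD, n = 4 each). In 8 of the 43 effectors the level was called higher with EZH2 siRNA than with control siRNA, and in 0 it was called lower. Over all tested genes the shares were 2.02% and 2.73%.

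Most tested sensors of nucleic acids rose, while most IRF and STAT factors and most antigen-presenting genes were not called. Of 12 tested sensors and adaptors of nucleic acids, 8 rose and 0 fell, with a median of 0.57 with EZH2 siRNA and 0.58 with control siRNA. None was called apart between the siRNAs, where 4.75% of all tested genes were. With the 75th percentile as the scale between arrays 4 of the sensors rose, and 2 did when that shift was taken over probes above background. Over all tested genes the first scale called 128 higher and 197 lower, in place of 1113 and 934, and the second 331 and 234. List counts on these scales, here and below, stand against those lower totals. DHX58, a regulator of the RNA sensor RIG-I, had a log2 fold change of 0.89 and was above background on 0 of 4 untransfected arrays, which puts it at least 1.63-fold higher. TRIM25, the ubiquitin ligase of that sensor, rose by 0.79, and IFIH1, a sensor of long double-stranded RNA, rose by 0.75. Of 18 tested IRF and STAT factors, IRF9, IRF7, IRF1 and STAT6 rose, 0 fell and 14 were not called, with a median of 0.11. IRF9, the DNA-binding subunit of the interferon-activated complex, had levels of 10.58, 10.59, 10.49 and 10.65 with EZH2 siRNA, 10.75, 10.42, 10.46 and 10.73 with control siRNA, and 7.88, 7.49, 7.41 and 7.35 in untransfected cells. It was 8.24-fold higher than in untransfected cells, and the siRNA groups overlapped (difference −0.02, adjusted p = 0.967). IRF7, the main inducer of interferon alpha genes, rose by 2.07 with EZH2 siRNA and by 1.57 with control siRNA, and the difference of 0.50 was called (adjusted p = 0.0164). IRF1 rose by 1.17 and STAT6 by 0.58. Of 18 tested genes of MHC class I and antigen processing, 6 rose, 1 fell and 11 were not called, and 1 rose with the 75th percentile scale. The immunoproteasome subunit PSMB9 rose by 1.30 with EZH2 siRNA and by 0.65 with control siRNA, a called difference (adjusted p = 0.00483). Its partner PSMB8 and the peptide transporter TAP1 rose by 0.97 each. ERAP2, a peptidase that trims peptides for MHC class I, fell by 0.62, but its other tested probe had the opposite sign (0.31), and its call was lost in 3 of the 12 fits that left out an array, with an adjusted p of up to 0.0908 without EZH2 siRNA array 1. The PSMB9 rise stood on 1 of its 2 tested probes, and PSMB8 was called by 3 of its 4, with a lowest log2 fold change of 0.19.

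**Figure D2:**
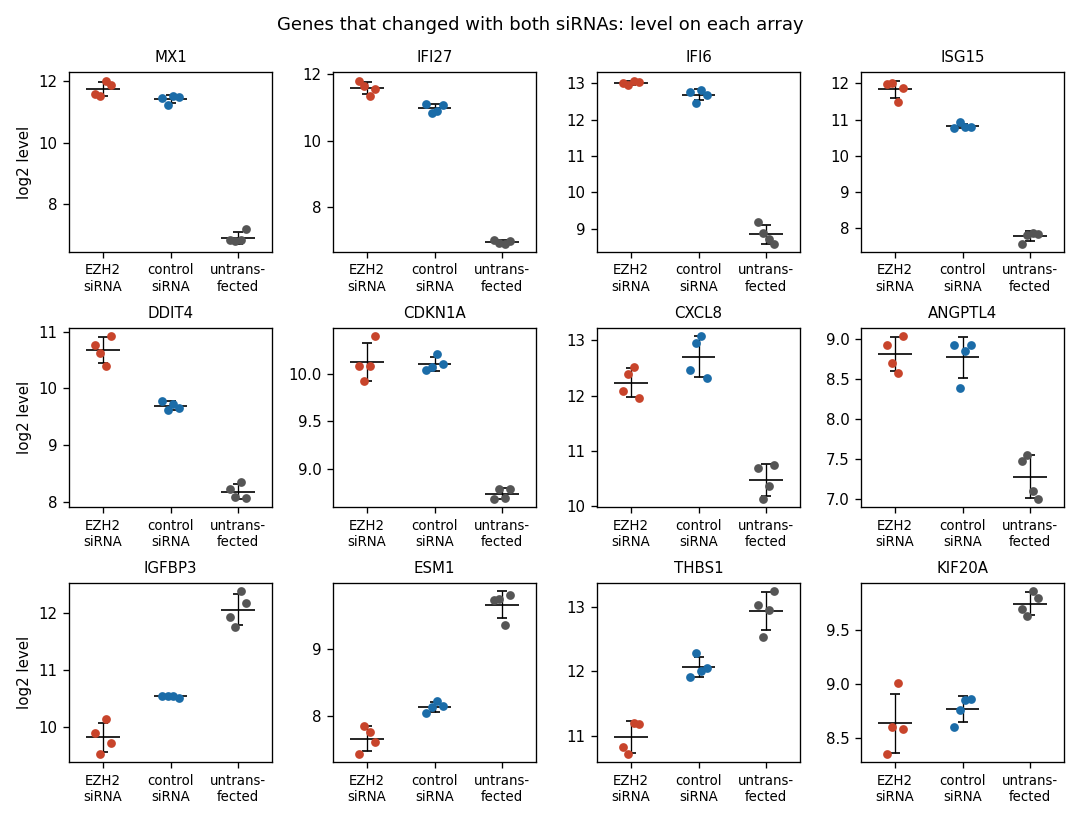
Log2 level of 12 genes on each array (points), with group means and SDs (bars, n = 4 each), for EZH2 siRNA, control siRNA and untransfected cells from left to right; the y axes do not start at 0. For MX1, both siRNA groups lie between 11.22 and 12.03 and all untransfected arrays between 6.77 and 7.19; for IGFBP3 and THBS1, EZH2 siRNA lies below control siRNA, which lies below untransfected cells.

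Inflammatory, immediate early and stress response genes had the next largest numbers of rises. The class shared with control siRNA held 15 of 17 rises of inflammatory genes, 10 of 15 of immediate early genes and 7 of 14 of stress response genes. Of the other stress response rises 6 could not be assigned and 1 was apart from control siRNA. Of 30 tested NF-kB and inflammatory genes, 17 rose and 0 fell, with a median of 0.45 with EZH2 siRNA and 0.55 with control siRNA, which called 18 higher and 0 lower. CXCL8, the chemokine that attracts neutrophils and acts on endothelial cells, had levels of 12.08, 12.39, 12.53 and 11.95 with EZH2 siRNA, 12.46, 12.96, 13.09 and 12.33 with control siRNA, and 10.69, 10.13, 10.36 and 10.74 in untransfected cells. It was 3.38-fold higher than in untransfected cells, and the siRNA groups overlapped. The cytokine IL1A rose by 1.37 and the survival factor IER3 by 1.28. IER3 was higher with EZH2 siRNA than with control siRNA (0.63, adjusted p = 0.00246), while TNF, TNFAIP3 and NFKBIZ of this list were lower, with log2 fold changes of −0.45, −0.64 and −0.58 between the siRNAs. CXCL1, a chemokine close to CXCL8, rose by 1.21, and its promoter is shown because it holds the letters of an NF-kB site. The stretch is chr4:73869273-73869352 on the plus strand of GRCh38.p14 in RefSeq, and capitals mark the match, read as GGGA, any base and TTTCC.
CXCL1: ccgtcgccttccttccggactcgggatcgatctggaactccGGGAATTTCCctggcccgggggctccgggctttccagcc
These letters were found on either strand in 9 of the 23 promoter windows of the list (39.1%), in 0.579% of all windows and in 0.63% of the windows of tested genes. On the 75th percentile scale, 4 NF-kB genes were called in place of 17, and the list's median was 0.33. Over all tested genes that scale called 128 higher, in place of 1113.

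In the integrated stress and unfolded protein responses, 14 of 29 tested genes rose and 0 fell, with a median of 0.34 with EZH2 siRNA and 0.24 with control siRNA, where 9 rose. DDIT4, an inhibitor of mTOR that is induced by stress and low oxygen, had levels of 10.76, 10.62, 10.40 and 10.93 with EZH2 siRNA, 9.78, 9.62, 9.72 and 9.66 with control siRNA, and 8.22, 8.09, 8.34 and 8.06 in untransfected cells. Its 3 groups did not overlap: it was 5.64-fold higher than in untransfected cells and 0.98 higher on the log2 scale than with control siRNA (adjusted p = 7.66e-05). PPP1R15A, which restores translation after stress, rose by 1.90, and control siRNA gave 1.90 too. DDIT3, a stress-induced factor linked to cell death, rose by 1.58 with EZH2 siRNA and by 1.03 with control siRNA, and the difference was called (adjusted p = 0.0214). In all, 5 genes of this list were called higher with EZH2 siRNA than with control siRNA (DDIT4, PCK2, DDIT3, TRIB3 and PHGDH) and 0 lower. Over all tested genes 2.02% were called higher and 2.73% lower between the siRNAs. Immediate early genes rose in 15 of 29 tested cases and fell in 0, with a median of 0.41 with EZH2 siRNA and 0.39 with control siRNA. The phosphatase DUSP5 rose by 1.54, the factor ATF3 by 1.32 and FOSB by 0.97. Of 29 tested genes of hypoxia and glycolysis, 7 rose and 2 fell. NDRG1, a stress-responsive gene of this list, rose by 1.64 and PFKFB4, a regulator of glycolysis, by 0.78. The glycolytic enzyme PGAM1 fell by 0.55, with overlapping arrays and a call lost in 4 of the 12 fits without an array (adjusted p up to 0.0972 without untransfected array 3). The second gene that fell is ADM, described with the angiogenic factors. On the 75th percentile scale, 6 stress response genes, 6 immediate early genes and 2 genes of hypoxia and glycolysis were called higher. Over all tested genes that scale called 128 higher, in place of 1113. The other PGAM1 probe had a log2 fold change of −0.29 and was not called.

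Genes of G2 and mitosis fell as a group under both siRNAs. Of 43 tested genes, 32 fell and 0 rose with EZH2 siRNA, where 8.28% of all genes fell, with a median of −0.68. With control siRNA 19 fell and 0 rose, with a median of −0.49. Of the 32, 19 were in the shared class, 12 could not be assigned, and PRC1, a microtubule bundler of the mitotic spindle, fell apart from control siRNA by 0.80. In bulk RNA, fewer cells in a phase and less RNA per cell cannot be told apart. The mean level over the list was 9.19 to 9.36 on the EZH2 siRNA arrays, 9.31 to 9.44 on the control siRNA arrays and 9.79 to 9.98 on the untransfected arrays.

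Promoters are shown for the 3 genes of this list with the largest falls among those called whose printed stretch holds the cell cycle homology region, bound by the DREAM complex and its activating counterpart. ANLN belongs to the genes named by rule, while HMMR and KIF11 were chosen after their values were seen. The stretches cover the 80 bases before each start on GRCh38.p14 in RefSeq: chr7:36389782-36389861 for ANLN, chr5:163460552-163460631 for HMMR and chr10:92593050-92593129 for KIF11, each on the plus strand. Capitals mark TTTGAA on either strand.
ANLN: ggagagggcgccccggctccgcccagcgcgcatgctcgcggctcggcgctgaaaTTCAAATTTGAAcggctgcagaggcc
HMMR: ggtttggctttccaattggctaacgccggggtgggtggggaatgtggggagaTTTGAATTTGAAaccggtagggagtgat
KIF11: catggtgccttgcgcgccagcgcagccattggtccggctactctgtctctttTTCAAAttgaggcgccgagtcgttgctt
These 6 letters were found in 24 of 36 promoter windows of the list (66.7%), in 15.4% of all windows and in 10% of the windows of tested genes. Among genes that were lower with both siRNAs, they were found in 41 of 180 windows (22.8%), a set that includes genes of the list. A run of 6 letters is short, and matches outside the list are common.

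ANLN, an actin-binding protein of the cleavage furrow, had levels of 9.16, 9.36, 9.02 and 9.14 with EZH2 siRNA, 9.46, 9.77, 9.61 and 9.92 with control siRNA, and 10.65, 10.53, 10.34 and 10.50 in untransfected cells. Its 3 groups did not overlap: it was 2.53-fold lower than in untransfected cells and lower than with control siRNA (log2 fold change −0.52, adjusted p = 0.0199). KIF20A, a kinesin of cytokinesis, was 2.16-fold lower, with 8.63 ± 0.27 with EZH2 siRNA, 8.76 ± 0.12 with control siRNA and 9.74 ± 0.10 in untransfected cells (SD, n = 4 each). TPX2, which activates the kinase AURKA on the spindle, was 2.12-fold lower, and KIF11, a spindle motor, had a log2 fold change of −0.89, as HMMR had one of −0.92. Between the siRNAs, ANLN and PRC1 were called and the other 41 genes were not, where 4.75% of all tested genes were called. With the 75th percentile scale 10 genes of the list were called lower, and without the 3 dimmest arrays 20 were. Over all tested genes those settings called 197 and 350 lower, in place of 934.

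Of 37 tested S phase genes, 7 fell and 2 rose, with a median of −0.19. RRM2, which makes deoxynucleotides, fell by 1.08 and TYMS, which makes thymidylate, by 0.65. The replication clamp PCNA fell by 0.65 at its brightest probe, but another tested probe had a log2 fold change of 0.04. The rises of CCND1 (0.42, adjusted p = 0.041) and CHAF1A (0.32, adjusted p = 0.0381) lay close to the threshold. Over all settings tried their log2 fold changes were 0.35 to 0.54 and 0.18 to 0.43. CCND1 lost its call in 8 of the 12 fits without an array, with an adjusted p of up to 0.126 without untransfected array 1. CHAF1A lost its call in 6 of those fits, with an adjusted p of up to 0.105 without untransfected array 2. With the 75th percentile scale 1 S phase gene fell and 0 rose. Of 18 tested p53 targets and CDK inhibitors, 4 rose and 3 fell, against 1 and 1 on that scale. CDKN1A, the inhibitor of cyclin-dependent kinases that p53 induces, had levels of 10.09, 9.92, 10.09 and 10.40 with EZH2 siRNA, 10.04, 10.07, 10.22 and 10.10 with control siRNA, and 8.68, 8.78, 8.70 and 8.79 in untransfected cells. It was 2.62-fold higher than in untransfected cells, and the siRNA groups overlapped (difference 0.02, adjusted p = 0.958). Its other tested probe was called too, with a smaller log2 fold change of 0.37. TNFRSF10B, a death receptor, rose by 0.68 and GADD45B by 0.65, both also called with control siRNA; a further probe of TNFRSF10B had a log2 fold change of −0.09. CCNG1, a cyclin-like p53 target, went the other way: its levels were 6.90, 7.68, 7.44 and 7.17 with EZH2 siRNA, 7.97, 8.42, 8.62 and 8.51 with control siRNA, and 8.68, 8.81, 8.05 and 8.28 in untransfected cells. Its fall of 1.16 was apart from control siRNA. ZMAT3 (−0.52) and PLK2 (−0.44) completed the falls. ZMAT3 lost its call in 5 of the 12 fits without an array (adjusted p up to 0.117 without EZH2 siRNA array 1) and PLK2 in 2 (up to 0.0661 without untransfected array 1).

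The largest falls shared with control siRNA were in secreted and surface proteins, and in 5 of the 8 largest EZH2 siRNA was called below control siRNA. IGFBP3, which binds insulin-like growth factors, had levels of 9.89, 9.53, 10.14 and 9.73 with EZH2 siRNA, 10.54, 10.55, 10.55 and 10.51 with control siRNA, and 11.92, 11.76, 12.38 and 12.16 in untransfected cells. It was 4.70-fold lower than in untransfected cells (log2 fold change −2.23, SE 0.14, adjusted p = 1.64e-09) and lower than with control siRNA (log2 fold change −0.71, adjusted p = 0.00645). THBS1, a matrix protein that inhibits angiogenesis, had levels of 10.83, 10.72, 11.21 and 11.19 with EZH2 siRNA, 11.92, 12.28, 12.01 and 12.05 with control siRNA, and 13.02, 12.53, 12.94 and 13.25 in untransfected cells. It was 3.86-fold lower than in untransfected cells, with a log2 fold change of −1.08 between the siRNAs (adjusted p = 0.000313) and of −0.87 for control siRNA against untransfected cells. ESM1, a proteoglycan of endothelial and tumour cells, had levels of 7.44, 7.86, 7.76 and 7.61 with EZH2 siRNA, 8.05, 8.13, 8.23 and 8.15 with control siRNA, and 9.74, 9.76, 9.37 and 9.82 in untransfected cells. In these 3 genes the EZH2 siRNA arrays lay below all control siRNA arrays, which lay below all untransfected arrays. ESM1 was 4.01-fold lower than in untransfected cells, and so was the tight junction protein CLDN11. CYP24A1, which breaks down vitamin D, fell by 1.62, with a called difference of −0.59 between the siRNAs. ARHGDIB fell by 1.62, the sphingosine receptor S1PR1 by 1.51 and the receptor subunit GABBR2 by 1.48, and these 3 were not called apart between the siRNAs. Of the EZH2 siRNA arrays, 3 had GABBR2 above background.

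Falls apart from control siRNA were led by PRDX6, a peroxiredoxin that reduces peroxides. Its levels were 8.61, 8.75, 9.26 and 8.81 with EZH2 siRNA, 11.23, 11.32, 11.28 and 11.21 with control siRNA, and 11.55, 11.46, 11.70 and 11.68 in untransfected cells. Every control siRNA array lay below every untransfected array, but the control siRNA change of −0.34 was not called (adjusted p = 0.137). Every EZH2 siRNA array lay below all others. PRDX6 was 6.68-fold lower than in untransfected cells (log2 fold change −2.74, SE 0.13, adjusted p = 1.51e-11). MTPN, or myotrophin, had levels of 9.42, 10.01, 9.77 and 9.47 with EZH2 siRNA, 11.00, 11.20, 11.07 and 11.16 with control siRNA, and 11.49, 11.40, 11.15 and 11.12 in untransfected cells. It was 3.08-fold lower than in untransfected cells, and its second probe had a log2 fold change of −1.70. P3H2, which hydroxylates collagen prolines, had levels of 8.72, 8.75, 9.18 and 9.01 with EZH2 siRNA, 10.36, 10.28, 10.19 and 10.35 with control siRNA, and 10.45, 10.33, 10.58 and 10.70 in untransfected cells, and was 3.03-fold lower. In all 3 genes every EZH2 siRNA array lay below every array of the other groups. HPRT1, an enzyme of purine salvage that often serves as a reference gene, had levels of 9.77, 10.08, 10.30 and 9.63 with EZH2 siRNA, 11.06, 11.37, 11.11 and 11.14 with control siRNA, and 11.58, 11.65, 11.22 and 11.44 in untransfected cells. It was 2.88-fold lower, by its other probe as well (−1.44), while the other 15 tested reference genes were not called. The nuclear protein PCNP fell by 1.54, the cargo receptor TMED10 of the early secretory pathway by 1.53, PM20D2 by 1.43 and DIPK2A by 1.41. Of the EZH2 siRNA arrays, 3 had DIPK2A above background. In each of these 4 genes the EZH2 siRNA arrays did not overlap the untransfected arrays.

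Of the 105 rises apart from control siRNA, 3 reached 2-fold. AP1S1, a subunit of the clathrin adaptor of the Golgi, had levels of 10.13, 9.39, 8.76 and 9.62 with EZH2 siRNA, 8.76, 8.44, 8.52 and 8.93 with control siRNA, and 8.18, 8.35, 8.11 and 7.99 in untransfected cells. Its EZH2 siRNA array 3 lay within the range of the control siRNA arrays, and the group was 2.49-fold higher than untransfected cells (log2 fold change 1.32, SE 0.20, adjusted p = 0.000167). BIK, a member of the BCL2 family that promotes cell death, had levels of 8.68, 8.60, 8.22 and 8.23 with EZH2 siRNA, 7.92, 7.57, 7.73 and 7.83 with control siRNA, and 7.47, 7.50, 7.28 and 6.73 in untransfected cells, and was 2.27-fold higher. PFDN6, a subunit of the prefoldin chaperone, had levels of 9.25, 9.24, 8.74 and 8.98 with EZH2 siRNA, 8.33, 7.93, 8.23 and 8.13 with control siRNA, and 7.93, 8.16, 7.84 and 7.73 in untransfected cells, and was 2.20-fold higher. For BIK and PFDN6 every EZH2 siRNA array lay above every array of the other groups. AP1S1 and BIK were also higher on every control siRNA array than on every untransfected array. Their control siRNA changes of 0.51 (adjusted p = 0.158) and 0.52 (adjusted p = 0.06) were not called. The next 5 were G0S2, an inhibitor of fat breakdown (0.92), the globin gene HBQ1 (0.87), ADIRF (0.84), the phosphatase inhibitor PPP1R1B (0.83) and the ubiquitin ligase TRIM8 (0.82), each on the log2 scale. Their control siRNA changes were 0.38, 0.13, 0.35, 0.19 and 0.36, none of which was called.

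**Figure D3:**
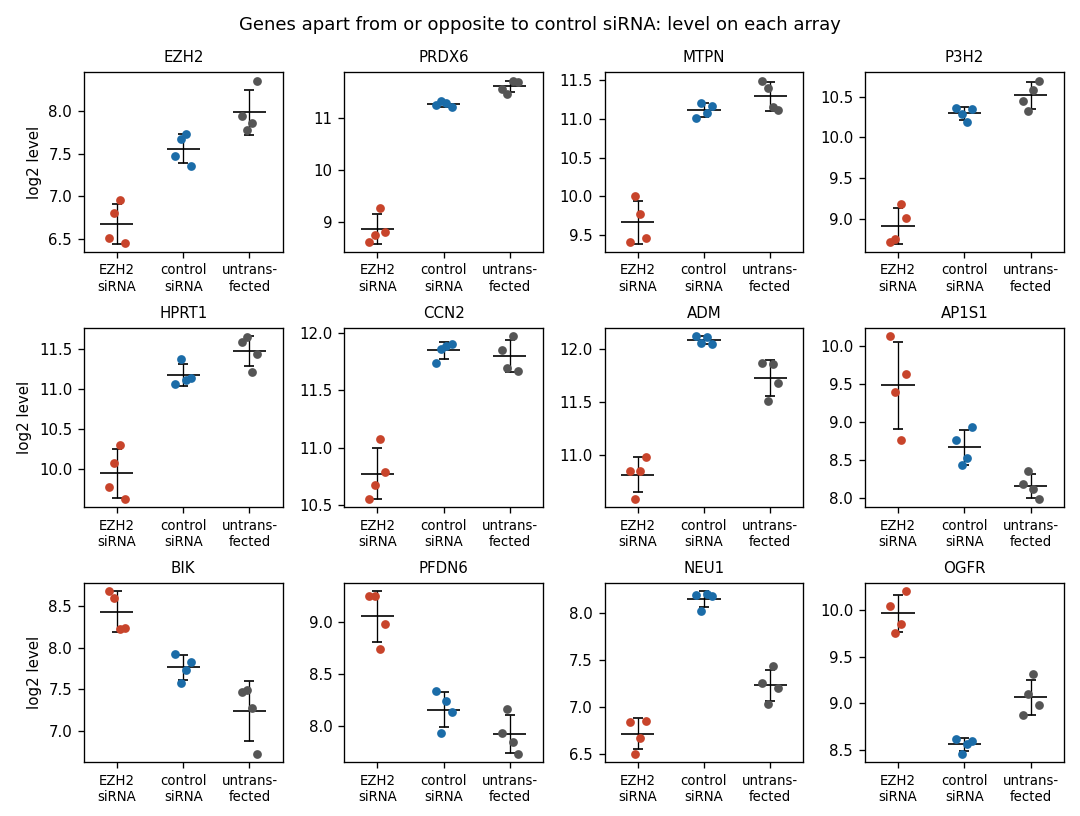
Log2 level of 10 genes that changed apart from control siRNA and of NEU1 and OGFR, which changed in opposite directions with the 2 siRNAs, on each array (points), with group means and SDs (bars, n = 4 each), for EZH2 siRNA, control siRNA and untransfected cells from left to right; the y axes do not start at 0. For PRDX6 the EZH2 siRNA arrays lie between 8.61 and 9.26 and all 8 other arrays at 11.21 or above. EZH2 is shown by its brightest probe, while another of its probes was also called lower with control siRNA.

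Angiogenic factors moved both ways: of 32 tested, 10 rose and 5 fell, with a median of 0.09. ANGPTL4, a secreted inhibitor of lipoprotein lipase that acts on vessels, had levels of 8.93, 8.70, 8.57 and 9.04 with EZH2 siRNA, 8.92, 8.39, 8.85 and 8.92 with control siRNA, and 7.47, 7.55, 7.10 and 7.01 in untransfected cells. It was 2.88-fold higher than in untransfected cells at its brightest probe, while its other tested probe had a log2 fold change of 0.09. CXCL8 and CXCL1 are also on this list, and 8 of its 10 rises were in the class shared with control siRNA. Among the 5 falls, CCN2, ADM, CCN1, NRP1 and PDGFC, the largest were apart from control siRNA. CCN2, a matricellular growth factor, had levels of 10.56, 10.68, 11.07 and 10.79 with EZH2 siRNA, 11.74, 11.86, 11.88 and 11.91 with control siRNA, and 11.85, 11.69, 11.97 and 11.67 in untransfected cells. ADM, the vasodilator adrenomedullin, had levels of 10.85, 10.58, 10.85 and 10.98 with EZH2 siRNA, 12.12, 12.06, 12.11 and 12.04 with control siRNA, and 11.87, 11.51, 11.86 and 11.67 in untransfected cells. Both were lower on every EZH2 siRNA array than on all others: CCN2 fell by 1.02 and ADM by 0.91, and against control siRNA their log2 fold changes were −1.07 and −1.27. With control siRNA, ADM was higher on every array than on every untransfected array, and its rise of 0.36 was not called (adjusted p = 0.0781). CCN1 fell by 0.58, with an adjusted p of 0.056 without untransfected array 4, NRP1 by 0.56 and PDGFC by 0.47.

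Of 12 tested angiogenesis inhibitors, THBS1 and ADAMTS1 fell and TIMP1 and SEMA3F rose. ADAMTS1, a matrix protease, fell by 0.66 apart from control siRNA. TIMP1 (0.37) and SEMA3F (0.48) had overlapping arrays. TIMP1 lost its call in 8 of the 12 fits without an array (adjusted p up to 0.117 without untransfected array 1) and SEMA3F in 5 (up to 0.137 without EZH2 siRNA array 4). VASH1, an angiogenesis inhibitor best known from endothelial cells, had levels of 7.17, 7.12, 7.26 and 7.28 with EZH2 siRNA, 7.21, 7.05, 6.96 and 7.24 with control siRNA, and 6.97, 7.00, 6.95 and 7.34 in untransfected cells. The groups overlapped, and the log2 fold change of 0.14 did not pass the test (95% confidence interval −0.10 to 0.39, adjusted p = 0.445, exact two-sided permutation p = 0.2). Of 27 tested matrix and adhesion genes, 2 rose and 4 fell, with a median of −0.13 with EZH2 siRNA and 0.04 with control siRNA. The integrin subunit ITGA5 rose by 0.99 and the laminin chain LAMB3 by 0.65, both with control siRNA as well; the other LAMB3 probe had a log2 fold change of −0.03. Besides THBS1, the falls were the integrin subunit ITGAV (−0.74), the collagen COL4A1 (−0.57) and the tenascin TNC (−0.42). Of these COL4A1 fell apart from control siRNA. ITGAV had overlapping arrays and an adjusted p of up to 0.057 without EZH2 siRNA array 1, and it lost its call in 2 of the 12 fits. Among 17 tested TGF-beta targets, 6 fell and 2 rose, with a median of −0.23 and −0.04 with control siRNA. THBS1, CCN2 and TGFBI (−0.67) gave the largest falls. BHLHE40 rose by 0.77. JUNB rose by 0.66, with overlapping arrays and a call lost in 3 of the 12 fits (adjusted p up to 0.0781 without EZH2 siRNA array 4).

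Of 19 tested mesenchymal genes, 5 fell and 1 rose, and 3 of the falls were apart from control siRNA. Over all genes, 165 of the 11282 tested fell in that class. These 5 calls depended on the scaling and the arrays used. In the list, 0 genes fell with the 75th percentile scale, 1 with that shift over probes above background and 1 without the 3 dimmest arrays. Over all tested genes those settings called 197, 234 and 350 lower, in place of 934. The receptor kinase AXL averaged 11.15 ± 0.25 with EZH2 siRNA, 11.88 ± 0.03 with control siRNA and 11.86 ± 0.30 in untransfected cells (SD, n = 4 each). It fell by 0.71, although the EZH2 siRNA and untransfected arrays overlapped. The actin-binding proteins CALD1 and CNN3 fell by 0.70 and 0.55, and 1 of the 3 CALD1 probes had a log2 fold change of 0.13. N-cadherin (CDH2) fell by 0.49 and TPM1 by 0.41, while S100A4 rose by 0.50. Of 15 tested epithelial genes, CLDN7 (0.48, apart from control siRNA) and JUP (0.43) rose, and TJP1 (−0.51) and CLDN1 (−0.49) fell. JUP lost its call without EZH2 siRNA array 4 (adjusted p = 0.0593), and 1 of its 3 probes was called. None of these 4 epithelial genes was called with the 75th percentile scale. CLDN7 was above background on 1 of 4 untransfected arrays.

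**Figure D4:**
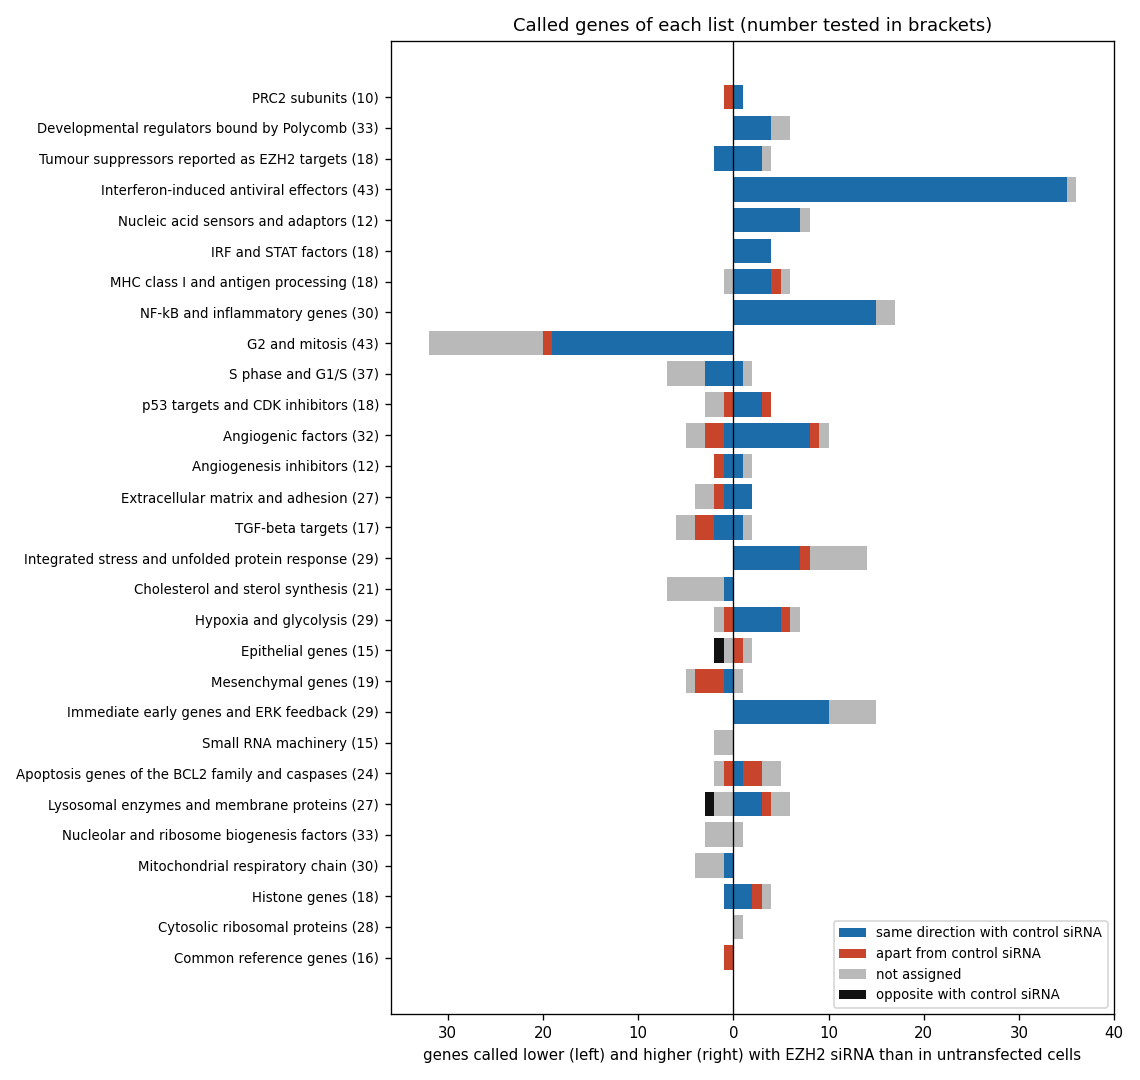
Number of genes called lower (bars to the left) and higher (bars to the right) with EZH2 siRNA than in untransfected cells, for each gene list, with the number of tested genes in brackets and the class of each called gene in colour. Interferon-induced effectors (36 higher) and G2 and mitosis genes (32 lower) have the longest bars, mostly in the class shared with control siRNA.

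Of the developmental regulators that Polycomb binds in other cells, 6 rose and 0 fell among 33 tested, where 9.87% of all tested genes rose and 8.28% fell. The list had 67 members, 55 with a named probe, and a median log2 fold change of −0.01. The 6 rises depended on the scaling and the arrays used: 0 were called with the 75th percentile scale, 1 with that shift over probes above background and 2 without the 3 dimmest arrays. Over all tested genes those settings called 128, 331 and 432 higher, in place of 1113. With array brightness as a covariate, 6 genes of the list rose and 3 fell. HOXB8 rose by 1.02, the Müllerian lineage factor PAX8 by 0.53 and HOXD1 by 0.51. None of the 33 was called between EZH2 siRNA and control siRNA, where 4.75% of all tested genes were. The difference of the list from that share was not tested. HOXB8 levels were 10.77, 10.12, 10.14 and 10.39 with EZH2 siRNA, 9.83, 9.90, 9.95 and 10.11 with control siRNA, and 9.82, 9.48, 9.07 and 8.99 in untransfected cells. They did not overlap between EZH2 siRNA and untransfected cells. A further PAX8 probe had a log2 fold change of −0.01. Of 18 tested tumour suppressors that have been reported as EZH2 targets, 4 rose and 2 fell, and 0 were called apart from control siRNA. Over all genes, 270 of the 11282 tested were in that class, and the difference of this list from that share was not tested. With the 75th percentile scale 1 of the 18 rose and 2 fell. CDKN1A and TNFRSF10B, described above, RAP1GAP, a GTPase activator of Rap (0.64), and FBXO32, a ubiquitin ligase subunit (0.58), rose. IGFBP3 and the Wnt inhibitor DKK1 fell, and both fell further with EZH2 siRNA than with control siRNA: DKK1 fell by 0.96 with EZH2 siRNA and by 0.51 with control siRNA (log2 fold change between the siRNAs −0.45, adjusted p = 0.0391). The other tested DKK1 probe had a log2 fold change of −0.27 against untransfected cells and was not called.

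In the lists of cell death, sterol synthesis and the lysosome, 3, 0 and 1 genes changed apart from control siRNA. Over all genes, 270 of the 11282 tested were in that class, and differences of these small counts from that share were not tested. Of 24 tested genes of the BCL2 family and caspases, 5 rose and 2 fell, and 3 of the 7 were apart from control siRNA. BIK led the rises, followed by BAX, a pore-forming protein of mitochondria (0.61, apart from control siRNA), and CASP4 (0.57), and PMAIP1 (0.54) and BCL2L2 (0.37) also rose. BAX had overlapping arrays and lost its call in 5 of the 12 fits without an array (adjusted p up to 0.109 without EZH2 siRNA array 1), and its other probe, with 0.32, was not called. BIRC2, an inhibitor of apoptosis, had levels of 10.03, 10.28, 9.26 and 9.78 with EZH2 siRNA, 10.06, 10.98, 10.81 and 11.06 with control siRNA, and 11.47, 11.12, 10.46 and 10.49 in untransfected cells. It fell by 1.05, apart from control siRNA, with a standard error of 0.24 that reflects wide spread within each group. CASP2 had a log2 fold change of −0.36, and its call was lost in 10 of the 12 fits without an array (adjusted p up to 0.141 without untransfected array 4), and 1 of its 3 probes was called. Of 21 tested genes of sterol synthesis, 7 fell and 0 rose, with a median of −0.28. IDI1, which makes an isoprenoid building block, fell by 1.21 with EZH2 siRNA and by 0.45 with control siRNA, a called difference (adjusted p = 0.00232), and 3 EZH2 siRNA arrays had it above background. SQLE fell by 0.77 and HMGCS1 by 0.69. IDI1 was in the shared class, and the other 6 falls could not be assigned. Of 27 tested lysosomal genes, 6 rose and 3 fell. The cathepsins CTSZ (0.80), CTSL (0.66) and CTSB (0.61) gave the largest rises, of which that of CTSZ was apart from control siRNA. The other CTSB probe had 0.27 and was not called. PPT1 (−0.56), LAMP2 (−0.52) and NEU1 (−0.51) fell. LAMP2 had overlapping arrays and lost its call in 4 of the 12 fits (adjusted p up to 0.0917 without EZH2 siRNA array 1), with 2 of its 6 probes called, and PPT1 in 1 (adjusted p = 0.0532 without EZH2 siRNA array 1). On the 75th percentile scale 1 gene of the cell death list rose and 0 fell, and 0 lysosomal genes were called.

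**Figure D5:**
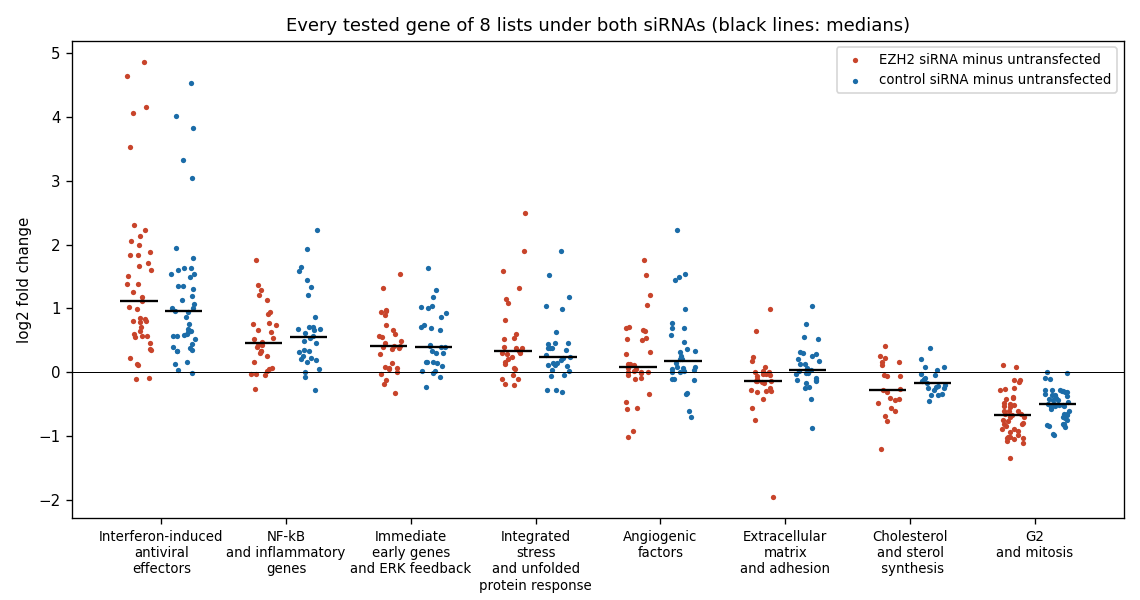
Log2 fold change of every tested gene of 8 lists (points) with EZH2 siRNA minus untransfected cells and with control siRNA minus untransfected cells, with list medians (black lines); both comparisons share the untransfected arrays. Medians are 1.11 and 0.96 for interferon-induced effectors and −0.68 and −0.49 for G2 and mitosis genes.

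The housekeeping groups stood on both sides of the shares of all tested genes, of which 9.87% rose and 8.28% fell. Of 28 tested cytosolic ribosomal proteins, RPS9 rose (0.51) and 0 fell, and the RPS9 call was lost without EZH2 siRNA array 1 (adjusted p = 0.0549). Of 30 genes of the respiratory chain, UQCRH, ATP5PB, ATP5F1C and ATP5PO fell and 0 rose. UQCRH, a subunit of complex III, fell by 1.01 with EZH2 siRNA and by 1.15 with control siRNA, while the 3 subunits of the ATP synthase fell by 0.60, 0.57 and 0.40. Of 33 nucleolar factors, POLR1C rose (0.46) and DDX21 (−0.74), WDR12 (−0.52) and NOP56 (−0.43) fell. WDR12 had an adjusted p of 0.0513 without EZH2 siRNA array 1 and NOP56 one of 0.0582 without EZH2 siRNA array 4, and each had 1 called probe, of 2 for WDR12 and of 3 for NOP56. Of 18 tested histone genes, H2AC18 (0.87), H2AC20 (0.74), H2BC5 (0.54) and H2BC12 (0.43) rose and H2AX (−0.61) fell. The rise of H2AC20 was apart from control siRNA, although for it every control siRNA array lay above every untransfected array. These histone genes have near-identical relatives, which probes may not separate, and the other H2BC5 probe had a log2 fold change of 0.06. H2AX had overlapping arrays and an adjusted p of up to 0.0711 without EZH2 siRNA array 3, and it lost its call in 2 of the 12 fits. Of 15 tested genes of small RNA pathways, PRKRA (−0.53) and DROSHA (−0.40) fell and 0 rose. PRKRA, a partner of the sensor kinase PKR, lost its call in 3 of the 12 fits (adjusted p up to 0.0723 without EZH2 siRNA array 1). On the 75th percentile scale, 1 gene of the respiratory chain fell, 2 histone genes rose, and 0 nucleolar, ribosomal protein or small RNA genes were called.

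A small set of 7 genes was called in opposite directions with the 2 siRNAs. NEU1, a lysosomal sialidase, had levels of 6.84, 6.50, 6.68 and 6.85 with EZH2 siRNA, 8.19, 8.02, 8.20 and 8.18 with control siRNA, and 7.25, 7.04, 7.43 and 7.21 in untransfected cells. It fell by 0.51 with EZH2 siRNA, rose by 0.92 with control siRNA, and its 3 groups did not overlap. OGFR, the opioid growth factor receptor, had levels of 10.05, 9.76, 9.85 and 10.21 with EZH2 siRNA, 8.62, 8.46, 8.57 and 8.60 with control siRNA, and 8.88, 9.10, 9.31 and 8.98 in untransfected cells. It rose by 0.90 with EZH2 siRNA and fell by 0.51 with control siRNA, again without overlap between groups. EMC6 rose by 0.49 with EZH2 siRNA and fell by 0.72 with control siRNA. CLDN1, a tight junction protein, CMTM4, ZFYVE26 and AMER1, a regulator of Wnt signalling, fell by 0.49, 0.49, 0.40 and 0.41 with EZH2 siRNA and rose by 0.57, 0.53, 0.62 and 0.67 with control siRNA. Leaving out 1 array ended the EZH2 siRNA call of these last 5 genes in 2 to 4 of the 12 fits. The highest adjusted p was 0.101 for EMC6, 0.119 for CLDN1 and 0.0834 for ZFYVE26, each without EZH2 siRNA array 1, 0.0861 for CMTM4 without EZH2 siRNA array 4, and 0.102 for AMER1 without untransfected array 1.

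Among the genes that could not be assigned, 3 rises and 3 falls are named by rule. ACSS1, a mitochondrial acetyl-CoA synthetase, averaged 7.70 ± 0.37 with EZH2 siRNA, 7.21 ± 0.17 with control siRNA and 6.77 ± 0.09 in untransfected cells (SD, n = 4 each). It rose by 0.93, TYMP, a thymidine phosphorylase with angiogenic activity, by 0.92 and the transcription cofactor VGLL4 by 0.83. RHOBTB3 averaged 8.70 ± 0.43 with EZH2 siRNA, 9.25 ± 0.13 with control siRNA and 9.76 ± 0.17 in untransfected cells (SD, n = 4 each). It fell by 1.06, and SDHAF3, an assembly factor of the respiratory chain, and RDX, a linker of actin to the membrane, fell by 0.99 each. In all 6 genes the control siRNA mean lay between the other group means, and neither of its differences was called. This was not so for each unassigned gene: CASP2 had a log2 fold change of −0.36 with EZH2 siRNA and of 0.06 with control siRNA. The other TYMP probe had 0.27 and was not called. The median log2 fold change of the unassigned genes that were higher was 0.48 with EZH2 siRNA and 0.25 with control siRNA, and of those that were lower −0.49 and −0.26.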

How the data were processed

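RNA of 12 samples of 1 ovarian cancer line was measured on Illumina bead arrays in 3 groups of 4 taken from the sample titles. The deposited raw values are intensities, 1 for each probe on each array, from BeadStudio 3.2 per the submitters' processing notes; the settings of that export are not stated in the labels. A second deposited table holds log2 values, which equal the log2 of the raw table after quantile normalisation to within 5e-05, and was used as an alternative. Detection p-values were not used here. All 12 arrays of sample values were used, and 0 columns were left out.

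With limma 3.58.1 (R 4.3.3), the intensities were corrected by normexp with an offset of 50 and then quantile-normalised. The offset shrinks the log2 fold changes of dim probes. Each array's background was taken as its most frequent signal, with the spread below it mirrored above, and the probes tested were those that exceeded it (p under 0.01) on 4 or more arrays. The reference table named 1 gene for 28098 probes, several for 13 and none for 20692, and a gene is represented by its brightest tested probe. A gene not above background on any array of a group has only a bound: the fold given as "at least" sets the bright group's mean against the dim group's mean of, per array, the higher of the probe's own signal and the lowest signal counted as above background. One linear model with 3 groups was fitted (lmFit and eBayes), Benjamini-Hochberg adjustment ran over every tested probe, and genes with an adjusted p under 0.05 were called. Single genes had an exact permutation test. The pipeline was tested on simulated data.

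The groups compared, the 33 gene lists and the genes named were chosen with earlier results of these data known. Named were VASH1, EZH2, EZH1, EED and SUZ12, the 8 largest rises and falls in the class shared with control siRNA and in the class apart from it, the 3 largest each way in the other classes (all without overlap between arrays), up to 3 called genes each way of a list, and every gene of a count of 5 or fewer. Other genes named, among them HMMR, KIF11, PRC1 and the genes listed as called between the siRNAs, were chosen after their values were seen. Promoters are RefSeq windows on GRCh38.p14, searched on both strands with Python 3.11.15, and figures were drawn with matplotlib 3.10.9. Alternatives covered scaling, background correction, filters, variance models, the replicate number as a block, array brightness, probe averaging, thresholds and leaving out each array.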

Additional observations from a re-analysis of the deposited data

Results flagged for a closer look

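In groups of 4 arrays, 10 of 284 checks of a named gene found 1 array far from the other 3, where chance gives about 1 in 20. Untransfected array 4 stood apart in 5 of them: MX1 was at 7.19 there and at 6.77 to 6.82 on the other untransfected arrays, PSMB9 at 7.25 (others 7.12 to 7.13), VASH1 at 7.34 (others 6.95 to 7.00), CASP2 at 11.34 (others 10.93 to 10.99) and CTSL at 10.77 (others 10.89 to 10.90). Untransfected array 1 stood apart for ISG15, at 7.58 (others 7.83 to 7.87), and untransfected array 2 for WDR12, at 9.22 (others 9.43 to 9.47). Among the EZH2 siRNA arrays, ARHGDIB was at 8.39 on array 3 (others 7.62 to 7.74), DHX58 at 6.50 on array 2 (others 7.12 to 7.18) and TRIM25 at 9.74 on array 4 (others 9.28 to 9.36). The calls of MX1, ISG15, ARHGDIB, DHX58, TRIM25, PSMB9 and CTSL held in each of the 12 fits that left out 1 array. Without untransfected array 4, the adjusted p of CASP2 was 0.141.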

How the results depend on the processing

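EZH2 itself stayed called in each setting tried, with a log2 fold change of −1.95 (own background and offset 16) to −0.99 (without the 3 dimmest arrays), and of −1.40 to −1.18 when 1 array was left out. None of the 137 called genes named by rule turned its direction, while SUZ12, which was not called, had log2 fold changes of −0.27 to 0.16 around −0.03. Counts are given in the order called with EZH2 siRNA, called with control siRNA, called between the siRNAs, shared, apart, opposite and unassigned. They were 325, 240, 104, 120, 39, 0 and 166 with a 75th percentile shift, where 128 called genes were higher and 197 lower (39.4% higher, against 54.4% in the main analysis). With that shift taken over probes above background on all arrays they were 565, 264, 64, 190, 30, 0 and 345, and the median of all genes moved to 0.12. An adjusted p under 0.01 gave 961, 412, 180, 302, 81, 1 and 577. Without the 3 dimmest arrays they were 782, 772, 128, 407, 54, 2 and 319. Array brightness as a covariate gave 2357, 1035, 397, 742, 218, 10 and 1387. Own background with offset 16 gave 286 between the siRNAs, 141 apart and 3 opposite. Array weights gave 1382 with control siRNA, 853 between the siRNAs, 12 opposite and 699 unassigned, and no filter gave 4 opposite. At least 2-fold changes numbered 151. Leaving out 1 array gave 1366 to 2271, 527 to 906, 217 to 923, 405 to 633, 101 to 498, 2 to 8 and 703 to 1316. A stricter threshold calls fewer genes by construction; the cause of the other shifts was not tested. Of 137 named called genes, 62 kept their call with the 75th percentile shift, 90 with the shift over probes above background, 99 without the 3 dimmest arrays and 135 with cyclic loess. With the 75th percentile shift 29 interferon effectors and 4 angiogenic factors rose, and 2 sterol and 2 TGF-beta genes fell. Testing only probes above background on all 12 arrays left 23 interferon effectors called. That filter drops genes such as OAS2, which was below background in untransfected cells, and the number of effectors still tested is not given here. The medians of the lists of Polycomb-bound regulators, mesenchymal genes, p53 targets, nucleolar factors, lysosomal genes, reference genes, respiratory chain genes and fibroblast markers changed sign with the scaling. Those of the interferon, NF-kB, immediate early, stress response, mitosis and sterol lists did not.

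With the replicate number as a block, 2034 genes were called with EZH2 siRNA, 817 with control siRNA and 555 between the siRNAs, with 288 apart. Same-numbered EZH2 siRNA and untransfected arrays correlated in their deviations at −0.24, 0.46, 0.08 and 0.18, so the numbers were not taken as pairs.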
